A study of Homo sapiens with 6 samples.

Results

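Fatty acid synthesis and glycerolipid genes were followed here as a set of 39 named genes, out of 57819 genes in the deposited table. The members were taken by symbol and cover the enzymes that make fatty acids, desaturate and elongate them, activate them and build them into triglyceride, with lipid droplet proteins, lipases, fatty acid binding proteins and 2 transcription factors. All 39 symbols were found in the table, and 38 had enough reads to be tested. The RNA came from IMR90 ER:Ras cells, which are human lung fibroblasts. They carry Ras as a fusion with the hormone-binding part of the estrogen receptor, so that 4-hydroxytamoxifen (4OHT) switches it on. The cells of both groups carried ER:Ras and received 200 nM 4OHT for 3 days. The control group (3 libraries) received the scrambled siRNA siSCR, and the knockdown group (3 libraries) received an siRNA against sin-lncRNA, a long noncoding RNA. No library of cells without 4OHT enters the comparison, which asked what loss of sin-lncRNA changes in cells with active Ras. IMR90 ER:Ras is 1 line and the knockdown is 1 labelled siRNA condition. The promoter of the transgene, and whether the line is a clone, are not given in the sources used here. Nothing in the labels says that replicates were separate cultures, so p-values measure the spread between these libraries, which may be technical.

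Fatty acid synthesis starts from acetyl-CoA, which ACLY makes from citrate and ACSS2 from acetate. Acetyl-CoA carboxylase turns it into malonyl-CoA and FASN builds palmitate, which desaturases and elongases then modify. Acyl-CoA synthetases activate fatty acids, and GPAM, AGPAT, lipin and DGAT enzymes join them to glycerol to give phospholipid precursors and triglyceride, which is stored in droplets and released by lipases. The transcription factor SREBP-1c, encoded by SREBF1, is a known activator of many of these genes, and its relative SREBP-2, encoded by SREBF2, is known above all for cholesterol synthesis genes.

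Levels are given as RPM, the reads recovered from the deposited log2 values scaled as in CPM to the authors' effective library size. The libraries held 22117324 to 50913672 reads in genes, and each knockdown library was shallower than each control. Where a library has 0 reads of a gene, up to 3 reads (0.0596 to 0.134 RPM by library) remain possible from counting error alone, and duplicates made by PCR add error beyond that. sin-lncRNA itself (listed as RP4-530I15.6, ENSG00000234693.1, chr20:49262008-49278812, plus strand, hg19) stood at 3.70, 4.73 and 4.09 RPM in controls and 0.493, 0.640 and 0.534 RPM in knockdowns, 13.3% of the control mean (log2 fold change -2.86 ± 0.18 SE, adjusted p = 7.94e-07, limma). The 10 fibroblast markers were all detected, with summed levels of 15700 to 16900 RPM in controls and 11400 to 11800 RPM in knockdowns. 5 of them were called higher and 5 lower. The 7 adipocyte markers summed to 3.46 to 4.38 RPM in controls and 3.59 to 4.10 RPM in knockdowns, and neither of the 2 with enough reads was called. The defining adipocyte genes ADIPOQ and LEP averaged 0.0142 RPM or less in each group. In bulk RNA, fewer cells expressing a gene and less RNA per cell cannot be told apart.

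Of the 38 tested members, 21 fell after the knockdown, 1 rose and 16 were not called (limma, Benjamini-Hochberg adjusted p under 0.05 over 19048 genes). The members that fell make up 55.3% of those tested, where 23.5% of all tested genes and 26.4% of tested protein-coding genes fell. The member that rose is 2.63% of those tested, where 17.5% of all tested genes rose. Because the members were chosen with earlier results of these data known, their shares are a description only. The median log2 fold change of the members was -0.31, beside -0.04 over all tested genes and -0.03 over protein-coding genes, and 33 of 38 values were negative. 10 of the 38 tested members were called lower with a fall of at least 0.5 on the log2 scale. Of all tested genes, 7.65% (1458 of 19048) were both called lower and past that size. All 3 knockdown libraries lay below all 3 controls in 21 members, 19 of them among those called lower, and 28.5% of all tested genes showed that order. By role, the falls covered 4 of 5 genes of acetyl-CoA, malonyl-CoA and palmitate synthesis, 7 of 9 of glycerolipid synthesis, 3 of 4 lipases and both fatty acid binding proteins. Among desaturases 2 of 5 fell, among tested elongases 2 of 5, among droplet coats 1 of 2, and among acyl-CoA synthetases and the 2 transcription factors none (0 of 4 and 0 of 2). At an unadjusted p under 0.05 the counts were also 0 of 4 and 0 of 2, and limma-voom likewise called none of these 6 genes. Other limma fits did call SREBF1 lower without control replicate 2 (-0.30, adjusted p = 0.0117). They also called ACSL4 lower after a correction for GC content and length (-0.11, adjusted p = 0.0249).

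**Figure D1:**
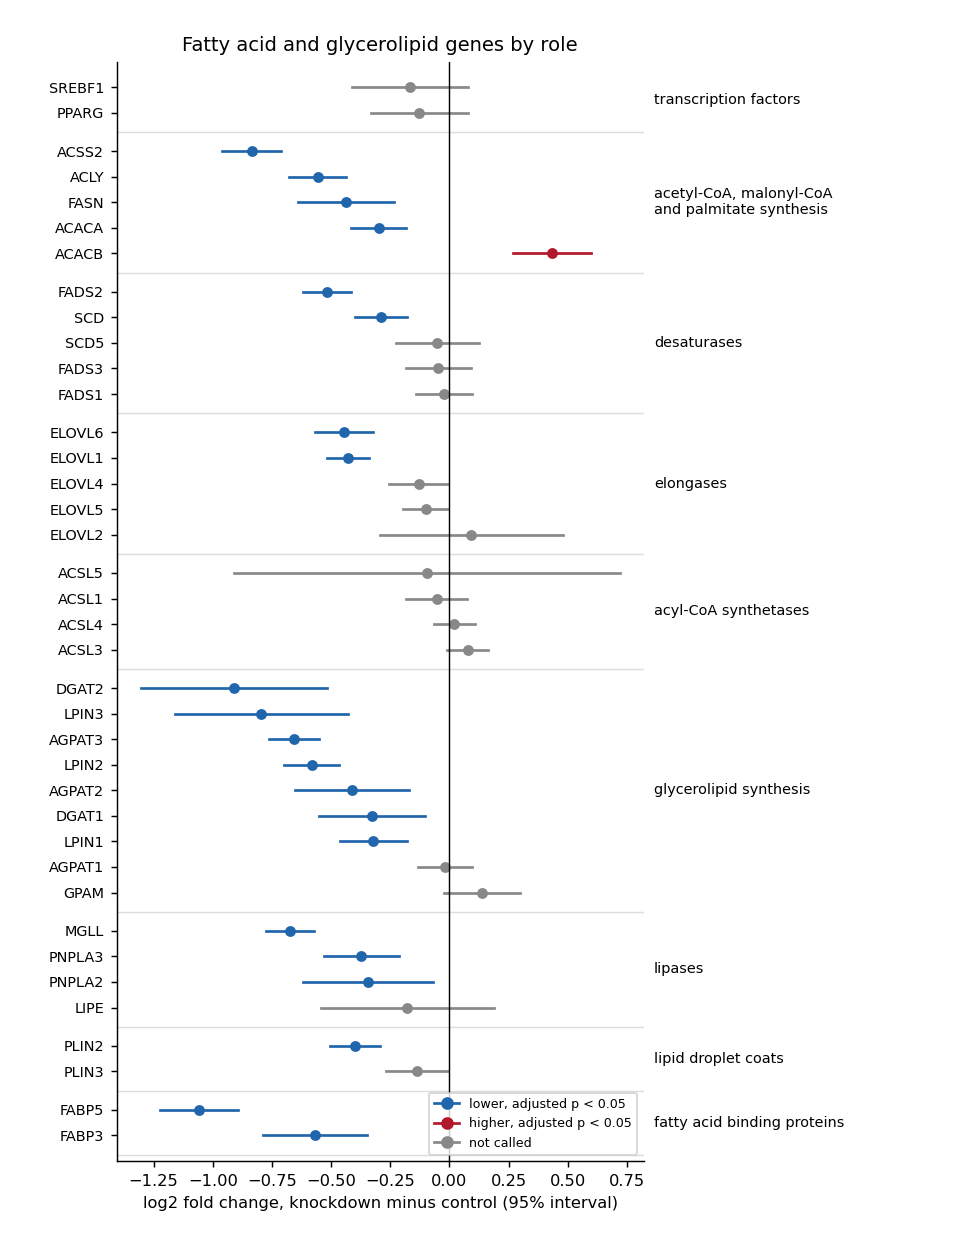
Log2 fold change, knockdown minus control, of the 38 tested members grouped by role (horizontal axis, points with 95% intervals from limma, not adjusted for the number of genes). FABP5 lies farthest to the left at -1.06, ACACB is the called gene to the right of 0 at 0.43, and the acyl-CoA synthetases sit around 0.

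The 2 transcription factors were not called. SREBF1 (chr17:17713713-17740325, minus strand) stood at 74.5, 52.0 and 63.4 RPM in controls and 50.2, 60.4 and 57.1 RPM in knockdowns. The groups overlapped, and the 2 highest values were controls. Its log2 difference was -0.17, with a 95% interval from -0.41 to 0.08 and an adjusted p of 0.259 (limma), and with 1 library left out it ran from -0.04 (adjusted p = 0.754, without control replicate 1) to -0.30 (adjusted p = 0.0117, without control replicate 2, the one such fit that called it). It was -0.07 (adjusted p = 0.374) after a correction for GC content and length. PPARG, the master regulator of fat cell differentiation, stood at 20.1, 19.9 and 19.8 RPM in controls and at 19.9, 15.4 and 19.8 RPM in knockdowns. Its interval ran from -0.33 to 0.08, and knockdown replicate 2 alone was low. SREBF1 overlaps RAI1 on the other strand, which averaged 98.7 and 101.5 RPM, and whether counting used strand is not stated.

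The entry steps of the pathway fell together. ACSS2 (ENSG00000131069.15, chr20:33459949-33515769, plus strand), which makes acetyl-CoA from acetate, stood at 33.0, 32.1 and 32.1 RPM in controls and 17.9, 18.8 and 17.7 RPM in knockdowns. Both groups were tight and far apart, and the knockdown mean was 56.0% of the control mean (log2 fold change -0.84 ± 0.06 SE, adjusted p = 1.56e-06, limma). ACLY (ENSG00000131473.12, chr17:40023161-40086795, minus strand), which makes acetyl-CoA from citrate, stood at 595, 670.0 and 637 RPM in controls and 447, 405 and 440.3 RPM in knockdowns. Its groups did not overlap, and its level was 68.0% of control (-0.56 ± 0.05 SE, adjusted p = 1.8e-05). Per kilobase of exon, ACLY was the most abundant member in controls, at 122 RPM per kilobase. ACSS2 shares part of its span with GGT7 on the other strand, whose mean went from 21.9 to 27.2 RPM.

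A promoter window of ACSS2 is shown because this gene had the largest fall of the 5 genes of acetyl-CoA, malonyl-CoA and palmitate synthesis. It runs from 250 bases before to 50 bases after a RefSeq transcript start, 5′ to 3′ on the gene's strand, at chr20:34876362-34876661 in GRCh38.p14, and capitals mark matches to the GC box GGGCGG, here in its reverse form.
ACSS2: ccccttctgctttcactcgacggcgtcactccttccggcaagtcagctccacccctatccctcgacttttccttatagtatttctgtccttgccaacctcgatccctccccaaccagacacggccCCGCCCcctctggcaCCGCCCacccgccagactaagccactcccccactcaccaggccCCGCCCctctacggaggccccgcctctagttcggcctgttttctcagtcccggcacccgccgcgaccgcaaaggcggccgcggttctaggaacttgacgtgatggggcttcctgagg
This window holds 3 GC boxes, no CCAAT box on either strand and no match to the sterol regulatory element core. RefSeq gives ACSS2 a second start, whose window (chr20:34874739-34875038, not shown) holds 1 GC box and 1 CCAAT box.

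The 2 acetyl-CoA carboxylases moved in opposite directions. ACACA (chr17:35441923-35766909, minus strand), the cytosolic form that supplies malonyl-CoA for synthesis, stood at 146, 154 and 150.3 RPM in controls and 128, 113 and 125 RPM in knockdowns. Each knockdown library was below each control, and the level was 81.3% of control (-0.30 ± 0.05 SE, adjusted p = 0.000982). ACACB (ENSG00000076555.11, chr12:109554400-109706031, plus strand), the form at the mitochondrial surface, whose malonyl-CoA limits fatty acid import, stood at 12.8, 11.1 and 12.4 RPM in controls and 16.1, 16.3 and 16.5 RPM in knockdowns. It was 135% of control, the one member that rose (0.43 ± 0.07 SE, adjusted p = 0.000885), on 332 to 622 reads per library. Their ratio, chosen after its values were seen, was 0.0805 ± 0.00805 (SD, n = 3) in controls and 0.134 ± 0.00915 in knockdowns, with no overlap (exact permutation test, two-sided p = 0.1, the smallest that 3 against 3 libraries allow).

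FASN (ENSG00000169710.6, chr17:80036214-80056208, minus strand), the enzyme that builds palmitate, stood at 512, 402 and 486 RPM in controls and 303, 368 and 362 RPM in knockdowns. The gap between the lowest control, replicate 2, and the highest knockdown was small beside the spread of the controls. The level was 73.7% of control (-0.44 ± 0.09 SE, adjusted p = 0.003), and leaving out each library in turn gave log2 fold changes from -0.54 to -0.35, all called.

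**Figure D2:**
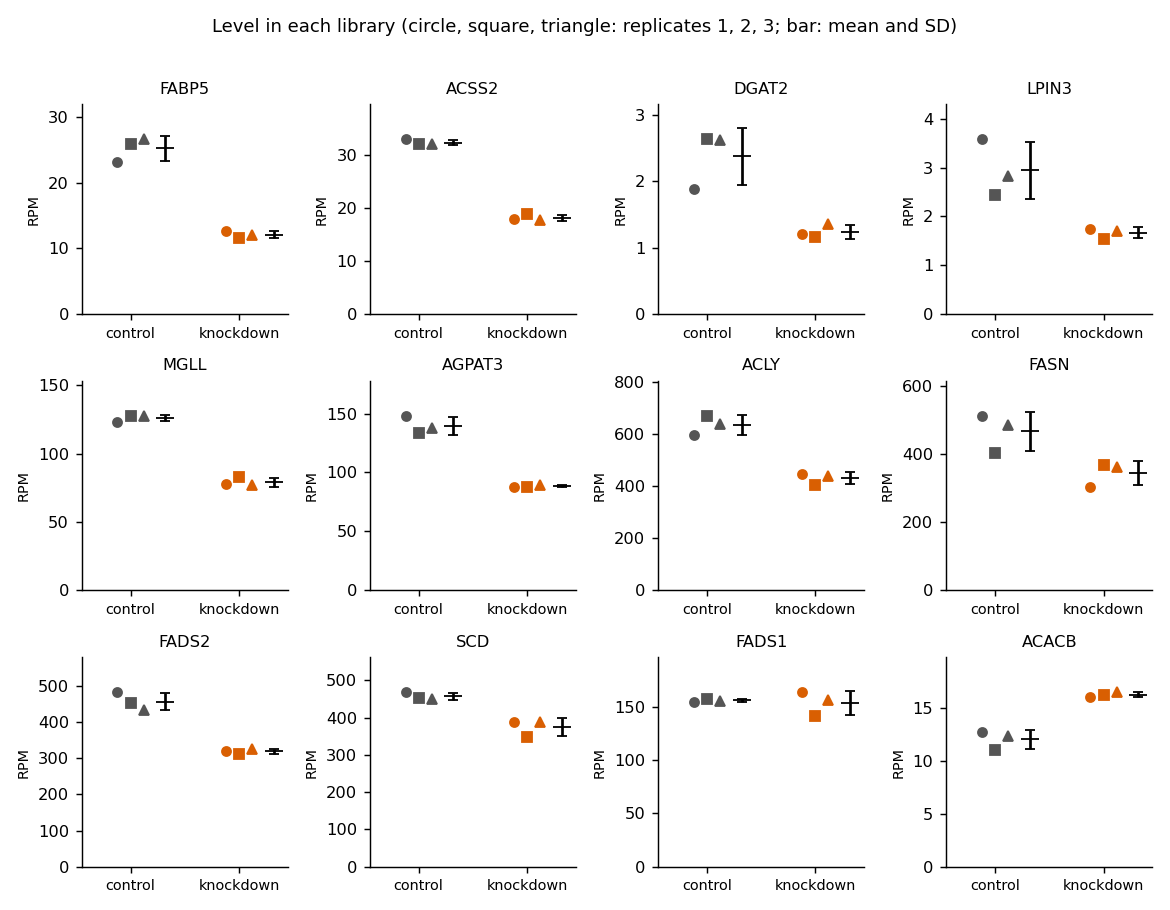
RPM of 12 members in the 6 libraries (vertical axes, linear from 0; circle, square and triangle are replicates 1, 2 and 3, bars the mean and SD). The groups do not overlap for 11 of them, with ACACB higher in knockdowns, and FADS1 shows overlapping groups at 142 to 164 RPM.

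Of the 5 desaturases, FADS2 and SCD fell, and SCD5, FADS1 and FADS3 were not called. FADS2 (ENSG00000134824.9, chr11:61560452-61634826, plus strand), the delta-6 desaturase that starts the making of long polyunsaturated fatty acids, stood at 482, 453 and 434 RPM in controls and 319, 312 and 325 RPM in knockdowns. Its groups were well apart, at 69.9% of control (-0.52 ± 0.05 SE, adjusted p = 9.98e-06). FADS1 (ENSG00000149485.12, chr11:61567099-61596790, minus strand), the delta-5 desaturase that acts after it, stood at 155, 158 and 156 RPM in controls and 164, 142 and 156 RPM in knockdowns. The groups overlapped, and the log2 difference was -0.02 with a 95% interval from -0.14 to 0.10. The ratio of FADS2 to FADS1 was 3.12, 2.87 and 2.79 in controls and 1.95, 2.21 and 2.08 in knockdowns, with no overlap. It was chosen after its values were seen, and its exact permutation p, two-sided, was 0.1, the smallest possible. FADS3, the neighbour with a less settled function, stood at 33.4 to 37.9 RPM in controls and 32.8 to 35.4 RPM in knockdowns and was not called (interval -0.18 to 0.09).

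In GRCh38.p14 the RefSeq start of FADS1 is on the minus strand at 61817003. It lies 800 and 599 bases past the 2 FADS2 starts that had windows here, on the plus strand at 61816203 and 61816404. From these starts the 2 genes are transcribed toward and across each other. In the table (hg19) FADS2 begins at 61560452, before the whole FADS1 span, so FADS2 may have other starts that had no window. For starts without a window, on either side of the FADS1 start, the arrangement of the 2 genes may differ from that given here. Which start is used in these cells was not tested. FADS2 overlaps FEN1 on the same strand in the table (FEN1 means 26.8 and 22.4 RPM). The spans of FADS1 and FADS2 in the table overlap too, so reads in their shared stretch cannot be assigned without strand. Their promoter windows are shown because FADS2 was called and its neighbour FADS1 was not. Each runs 5′ to 3′ on its own gene's strand, FADS2 at chr11:61816154-61816453 and FADS1 at chr11:61816954-61817253, with GC boxes and CCAAT boxes in capitals.
FADS2: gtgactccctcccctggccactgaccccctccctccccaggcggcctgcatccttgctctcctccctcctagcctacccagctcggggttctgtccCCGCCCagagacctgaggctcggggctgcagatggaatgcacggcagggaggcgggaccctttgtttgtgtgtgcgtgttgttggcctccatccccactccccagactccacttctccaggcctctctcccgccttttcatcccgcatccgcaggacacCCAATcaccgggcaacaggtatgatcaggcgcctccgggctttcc
FADS1: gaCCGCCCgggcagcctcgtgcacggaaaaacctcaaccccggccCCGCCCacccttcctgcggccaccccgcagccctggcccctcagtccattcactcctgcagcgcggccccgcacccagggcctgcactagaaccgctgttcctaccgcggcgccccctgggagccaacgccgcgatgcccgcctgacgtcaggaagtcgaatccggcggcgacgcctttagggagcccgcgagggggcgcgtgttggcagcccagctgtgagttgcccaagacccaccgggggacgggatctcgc
The FADS2 window, at the later of the 2 starts with windows, holds 1 GC box in reverse form and 1 CCAAT box. The window of the earlier start holds neither, and its end matched no FADS2 transcript of GENCODE 29. The FADS1 window holds 2 GC boxes in reverse form and no CCAAT box.

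**Figure D3:**
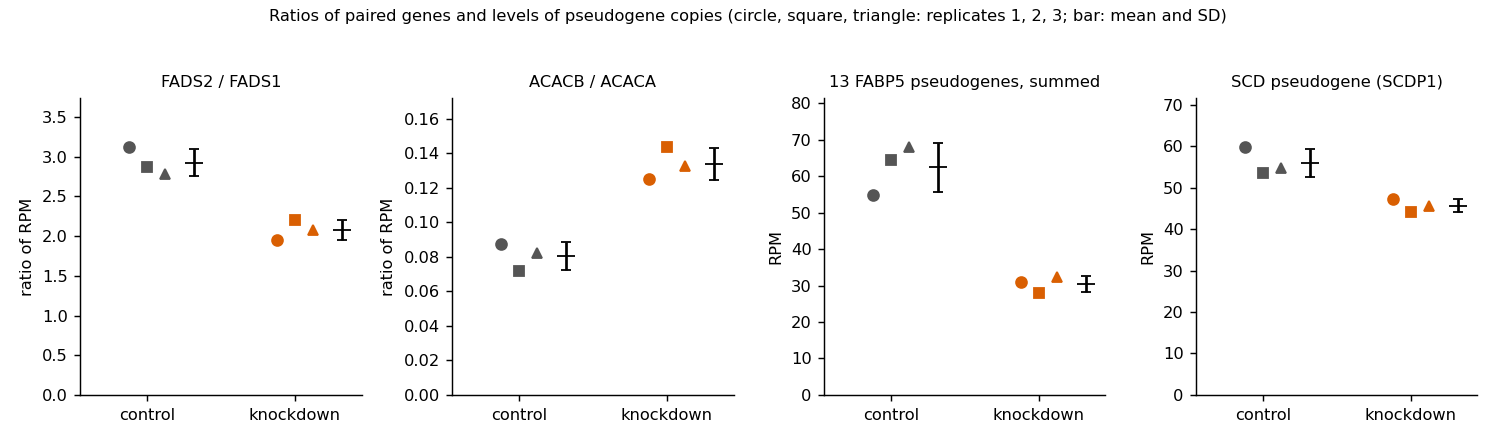
Per-library values of the FADS2 to FADS1 ratio, the ACACB to ACACA ratio, the summed FABP5 pseudogenes and the SCD pseudogene (vertical axes, RPM or ratio of RPM, linear from 0; circle, square and triangle are replicates 1, 2 and 3, bars the mean and SD). The FADS2 to FADS1 ratio is 2.79 to 3.12 in controls and 1.95 to 2.21 in knockdowns, and the FABP5 copies stand at 48.7% of control, where FABP5 itself stands at 47.9%.

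SCD (ENSG00000099194.5, chr10:102106881-102124591, plus strand), which makes oleate and palmitoleate, was among the most abundant members, at 468, 453 and 450.5 RPM in controls and 389, 347 and 387 RPM in knockdowns. All knockdown values were below all controls, at 81.9% of control (-0.29 ± 0.05 SE, adjusted p = 0.000876). The pseudogene SCDP1 shares sequence with SCD, and its level was 81.6% of control, 56.0 ± 3.30 RPM in controls and 45.7 ± 1.62 RPM in knockdowns (SD, n = 3). SCD and SCDP1 summed were at 81.9% of control, and how reads were split between them was not tested. SCD5 stood at 12.8 ± 1.11 RPM in controls and 12.3 ± 0.143 RPM in knockdowns and was not called (interval -0.23 to 0.12).

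Of the elongases, which lengthen fatty acids by a pair of carbons per round, ELOVL1 and ELOVL6 fell. ELOVL6 (chr4:110967002-111120355, minus strand), which extends palmitate to stearate, stood at 75.1, 82.5 and 84.2 RPM in controls and 61.5, 57.0 and 59.0 RPM in knockdowns (-0.44 ± 0.06 SE, adjusted p = 0.000113). ELOVL1 (chr1:43829068-43833696, minus strand), which makes very long saturated chains, stood at 134, 135 and 131 RPM in controls and 99.5, 99.8 and 97.8 RPM in knockdowns (-0.43 ± 0.04 SE, adjusted p = 1.46e-05). For both, the groups lay apart and the knockdown means were 73.4% and 74.3% of control. ELOVL4 and ELOVL5, which act on very long and polyunsaturated chains, had log2 differences of -0.13 and -0.10 with adjusted p of 0.0879 and 0.0795 (limma). Their knockdown libraries lay below all controls, at 24.4 against 26.7 RPM and 93.8 against 100.6 RPM in the means. ELOVL2 averaged 1.69 and 1.81 RPM on 35 to 76 reads per library, with an interval from -0.29 to 0.48, so that a change of that size was not detectable at this depth. ELOVL7 had at most 1 read in a library and was not tested.

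The 4 long-chain acyl-CoA synthetases were not called. ACSL4, which prefers arachidonate, had an interval from -0.07 to 0.11 on 225 ± 0.505 RPM in controls and 228 ± 6.73 RPM in knockdowns (SD, n = 3). ACSL3, found on nascent droplets, stood at 183 to 186 RPM in controls and 189 to 198 RPM in knockdowns, with groups apart but an adjusted p of 0.15. The narrow intervals of ACSL1 (-0.18 to 0.07), ACSL3 (-0.01 to 0.16) and ACSL4 exclude falls as large as those of ACSS2 or ACLY. ACSL5 had 8 to 37 reads per library and an interval from -0.91 to 0.72, so that a change of that size was not detectable at this depth.

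Along the glycerolipid route, 7 of 9 members fell, and GPAM, the only member that acts at the first step, was not among them. GPAT3, which acts at the same step but is not a member, fell and is given below. GPAM, the mitochondrial glycerol-3-phosphate acyltransferase that commits acyl-CoA to the route, stood at 15.5, 17.9 and 17.5 RPM in controls and 19.3, 17.9 and 18.6 RPM in knockdowns and was not called (adjusted p = 0.16). Among the AGPAT enzymes, which add the next acyl chain, AGPAT3 (ENSG00000160216.14, chr21:45285067-45406417, plus strand) fell from 148, 133 and 138 RPM to 88.1, 87.7 and 89.6 RPM. The groups were far apart, at 63.3% of control (-0.66 ± 0.05 SE, adjusted p = 2.7e-06). AGPAT1, the most abundant per kilobase of the 3 at 22.7 RPM per kilobase in controls, had an interval from -0.13 to 0.09. AGPAT2, the form mutated in a congenital lipodystrophy, stood at 40.4, 32.0 and 40.3 RPM in controls and 24.4, 32.2 and 28.1 RPM in knockdowns. Its groups overlapped, and its fall (-0.41 ± 0.11 SE, adjusted p = 0.0111) was -0.19 after a correction for GC content and length and lost its call without control replicate 3 (adjusted p = 0.0528).

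All 3 lipins, the phosphatidate phosphatases that make diacylglycerol, fell. LPIN2 (ENSG00000101577.5, chr18:2916992-3013313, minus strand) stood at 133, 132 and 126 RPM in controls and 91.2, 88.4 and 81.4 RPM in knockdowns (-0.58 ± 0.05 SE, adjusted p = 1.03e-05). LPIN1 (chr2:11817721-11967535, plus strand) stood at 129, 139 and 135 RPM in controls and 116, 97.0 and 110.5 RPM in knockdowns (-0.32 ± 0.06 SE, adjusted p = 0.00223). LPIN3, the least abundant, stood at 3.58, 2.43 and 2.82 RPM in controls and 1.75, 1.54 and 1.71 RPM in knockdowns (-0.80 ± 0.17 SE, adjusted p = 0.00295), on 36 to 142 reads per library. Knockdown libraries lay below all controls for each of the 3. LPIN2 shares part of its span with RP11-737O24.3 on the same strand, at 14.4 RPM in controls.

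The 2 enzymes that close the route to triglyceride also fell. DGAT2 (ENSG00000062282.10, chr11:75470557-75512579, plus strand) stood at 1.88, 2.63 and 2.62 RPM in controls and 1.21, 1.15 and 1.35 RPM in knockdowns. This was 52.1% of control with no overlap, on 27 to 132 reads per library (-0.91 ± 0.18 SE, adjusted p = 0.00198). DGAT1 (chr8:145539954-145550573, minus strand) stood at 12.8, 11.2 and 12.4 RPM in controls and 8.56, 11.1 and 9.44 RPM in knockdowns. Knockdown replicate 2 was close to control replicate 2, and the fall of DGAT1 (-0.33 ± 0.10 SE, adjusted p = 0.0243) lost its call without control replicate 1 (adjusted p = 0.0716), control replicate 3 (0.0834), knockdown replicate 1 (0.0862) or knockdown replicate 3 (0.0766). Per kilobase of exon, DGAT2 was among the lowest members in controls, at 0.301 RPM per kilobase.

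Genes of triglyceride breakdown fell beside those of synthesis. MGLL (ENSG00000074416.9, chr3:127407909-127542051, minus strand), which splits the last acyl chain from monoglycerides, stood at 123, 128 and 127 RPM in controls and 77.8, 82.7 and 76.8 RPM in knockdowns. The groups were far apart, at 62.7% of control (-0.67 ± 0.05 SE, adjusted p = 1.58e-06). PNPLA3 (chr22:44319619-44360368, plus strand), a droplet lipase known for a liver fat variant, stood at 19.1, 19.2 and 16.9 RPM in controls and 13.9, 14.3 and 14.5 RPM in knockdowns (-0.37 ± 0.07 SE, adjusted p = 0.00184). It overlaps SAMM50 on the same strand, whose mean went from 57.2 to 48.7 RPM. PNPLA2, the lipase that starts triglyceride breakdown, stood at 42.2, 27.7 and 35.2 RPM in controls and 25.1, 29.3 and 27.3 RPM in knockdowns. Its groups overlapped because control replicate 2 lay within the knockdown range, and its fall (-0.35 ± 0.12 SE, adjusted p = 0.0454) had adjusted p up to 0.149 when one library was left out, with the call lost in 5 of 6 cases and kept without control replicate 2. LIPE, hormone-sensitive lipase, averaged 1.829 and 1.601 RPM and was not called (interval -0.54 to 0.19).

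Of the 2 droplet coat genes, PLIN2 (chr9:19108373-19149288, minus strand), the coat protein found on droplets of most cells, stood at 65.1, 69.3 and 69.9 RPM in controls and 52.4, 51.2 and 51.2 RPM in knockdowns, 75.8% of control (-0.40 ± 0.05 SE, adjusted p = 8.72e-05). PLIN3, a coat protein of nascent droplets, stood at 271, 250.1 and 267 RPM in controls and 217, 250.5 and 250.4 RPM in knockdowns. Its groups overlapped, and it was not called (-0.14, adjusted p = 0.0915). Without control replicate 2 it was -0.17 (adjusted p = 0.0447), without knockdown replicate 1 it was -0.07 (0.303), and after the correction for GC content and length it was -0.04 (0.458).

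The fatty acid binding proteins, which carry fatty acids through the cytosol, both fell, and FABP5 had the largest fall among the tested members. FABP5 (ENSG00000164687.6, chr8:82192598-82197012, plus strand) stood at 23.1, 25.9 and 26.6 RPM in controls and 12.7, 11.6 and 12.0 RPM in knockdowns. The knockdown mean was 47.9% of control with groups far apart (-1.06 ± 0.07 SE, adjusted p = 1.97e-06). FABP3 (chr1:31838472-31849697, minus strand), the heart form, stood at 11.3, 9.42 and 9.56 RPM in controls and 6.50, 6.49 and 7.37 RPM in knockdowns (-0.57 ± 0.10 SE, adjusted p = 0.000995). FABP5 has 13 pseudogene copies by name in the table, several of them at 0 RPM in both groups. Together the copies held 62.5 ± 6.77 RPM in controls, more than FABP5 itself, and 30.4 ± 2.29 RPM in knockdowns (SD, n = 3). The largest, FABP5P7, averaged 29.5 and 13.7 RPM. Short single reads cannot be placed with certainty between FABP5 and such copies, so its own level is uncertain. FABP5 with its copies was at 48.5% of control, a sum in which the copies hold most of the reads, and how reads were split was not tested.

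GC content moved with the libraries and is given beside these results. Among the genes of highest GC content (56.78% or more), the median log2 deviation from the control mean was 0.09, -0.10 and 0.02 in controls and -0.27, -0.07 and -0.14 in knockdowns. Control replicate 2 was thus the low control for GC-rich genes. Of the 10 members with that GC content, it was the lowest control in 8, against 7 of the other 28. These members include SREBF1, FASN, AGPAT2, DGAT1, PNPLA2 and PLIN3. After a correction for GC content and length, 25 of 38 members were called, beside 22 without it. Over all genes the same fit called 8287 of 18735, beside 7805 of 19048 without it. The fall of FASN was then -0.35 (adjusted p = 1.16e-05, limma), of AGPAT2 -0.19 (0.00866), of DGAT1 -0.21 (0.0388) and of PNPLA2 -0.18 (0.0274), while ACSS2 stood at -0.81, DGAT2 at -0.96 and FABP5 at -1.01. ELOVL4 (-0.21, adjusted p = 0.00615), ELOVL5 (-0.16, 0.00274) and ACSL4 (-0.11, 0.0249) gained a call, the last with its sign turned. The median log2 fold change of the members was -0.21 after the correction, and the corrected median over all genes is not given here.

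**Figure D4:**
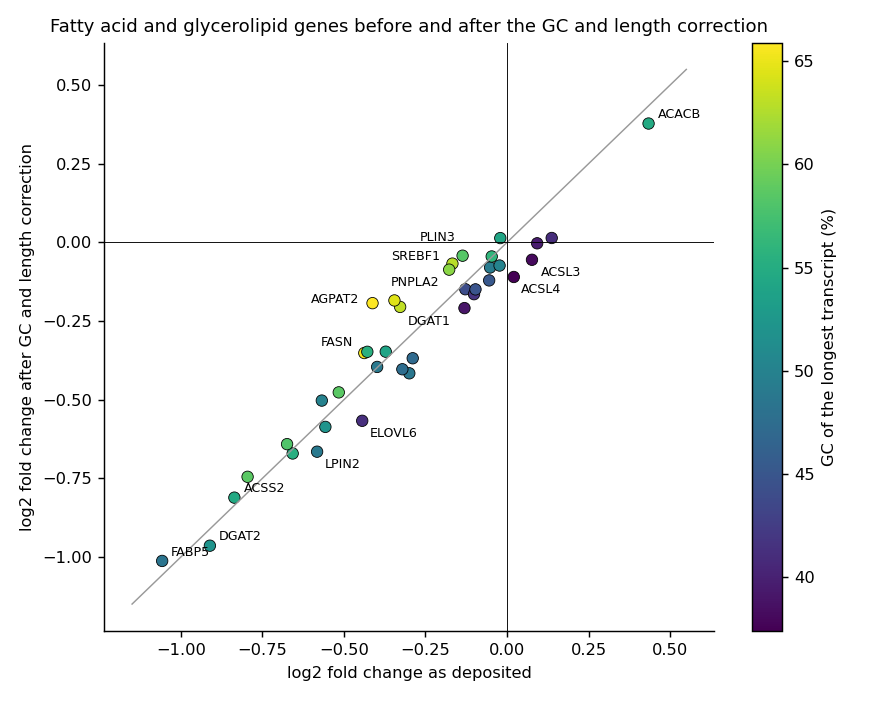
Log2 fold change of the 38 tested members as deposited (horizontal axis) and after correction for GC content and transcript length (vertical axis), with the line of equality; colour gives the GC percent of the longest transcript. FABP5, DGAT2 and ACSS2 stay at -0.81 or below after correction, and the GC-rich members AGPAT2, PNPLA2 and DGAT1 move toward 0.

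Promoter windows of 300 bases were available for 32 members from RefSeq (GRCh38.p14), 57 windows in all. Each motif was searched on both strands in any window of a gene. All members without a window (LPIN3, MGLL, PNPLA3, FASN, DGAT1, DGAT2 and FABP5) were called lower. The counts below thus cover 14 of the 21 members that fell, and the share of that whole group with a motif is not known. The sterol regulatory element core TCACNCCAC was found in 2 members, ACSL1 and PNPLA2, where 1.13% of all 35116 windows hold it. The E-box CACGTG was found in 4 members (ELOVL4, ELOVL5, LPIN2 and PLIN2), 2 of 14 that fell and 2 of the other 18, where 7.26% of all windows hold it. The CCAAT box was found in 19 members, 7 of 14 that fell and 12 of the other 18, where 34.6% of all windows hold it, and the GC box GGGCGG in 27 members, 12 of 14 that fell and 15 of the other 18, where 45.0% of all windows hold it. Members with several windows have more chances of a match than the single windows behind these shares, and a match is a description of letters.

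Other genes of the pathway were taken from 7 lists with 113 genes, of which 91 were tested. Of these, 38 fell (41.8%) and 10 rose, beside 23.5% and 17.5% of all tested genes, with a median log2 fold change of -0.14. The lists were chosen with earlier results of these data known, so their shares are a description only. Among regulators of lipogenesis 9 of 17 tested genes fell and 2 rose. SREBF2 (chr22:42229109-42303312, plus strand) fell the most of these, from 239, 219 and 219 RPM in controls to 114, 110.1 and 111 RPM in knockdowns. The groups were far apart (-1.01 ± 0.05 SE, adjusted p = 1.26e-07), while SREBF1 was not called. PPARGC1B (-0.67, adjusted p = 0.000855) and NR1H3, which encodes LXR alpha (-0.58, adjusted p = 0.002), fell as well.

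In citrate, NADPH and cofactor supply 5 of 11 genes fell and 1 rose. In the list of other elongation and desaturation enzymes 3 of 8 fell and 1 rose. The gene that rose there, PPT1, is a lysosomal thioesterase and not itself an elongation or desaturation enzyme. PPT1 went from 60.2 to 97.0 RPM in the means (0.69, adjusted p = 1.32e-05, limma). Among other acyl-CoA synthetases, thioesterases and transporters 6 of 17 fell and none rose (0 of 17 with limma, and 1, CD36, at an unadjusted p under 0.05), led by the thioesterase ACOT7, from 89.3 to 46.6 RPM (-0.94, adjusted p = 1.66e-06). SLC27A3 (-0.71, adjusted p = 0.0011) and SLC27A5 (-0.61, adjusted p = 0.0147) belong to the fatty acid transport proteins, and SLC27A5 lost its call without control replicate 2 (adjusted p = 0.0662). Of the other glycerolipid enzymes 6 of 14 fell and 3 rose. GPAT3, listed under the older symbol AGPAT9, acts at the step of GPAM in the endoplasmic reticulum and went from 15.2 to 8.15 RPM (-0.89, adjusted p = 0.000215).

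In the list of other droplet and lipolysis genes 1 of 10 fell and 2 rose, the smallest share of falls of the 7 lists. The lysosomal acid lipase LIPA rose from 56.9 to 83.0 RPM (0.54, adjusted p = 2.41e-05), and G0S2, an inhibitor of PNPLA2, was the 1 that fell, from 2.35 to 1.54 RPM in the means (-0.62, adjusted p = 0.0333). Its libraries overlapped, with control replicate 2 at 2.00 and knockdown replicate 2 at 2.01 RPM. G0S2 lost its call without control replicate 1 (adjusted p = 0.115), control replicate 3 (0.0802), knockdown replicate 1 (0.111) or knockdown replicate 3 (0.101), and after the GC and length correction (0.0569). Phosphatidylcholine and phosphatidylethanolamine synthesis had 8 of 14 genes that fell and 1 that rose. PCYT2, which makes CDP-ethanolamine, fell from 39.2 to 22.4 RPM (-0.80, adjusted p = 7.4e-06), and the kinases CHKA (-0.61, adjusted p = 0.000473) and ETNK2 (-0.65, adjusted p = 0.00749) fell too.

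**Figure D5:**
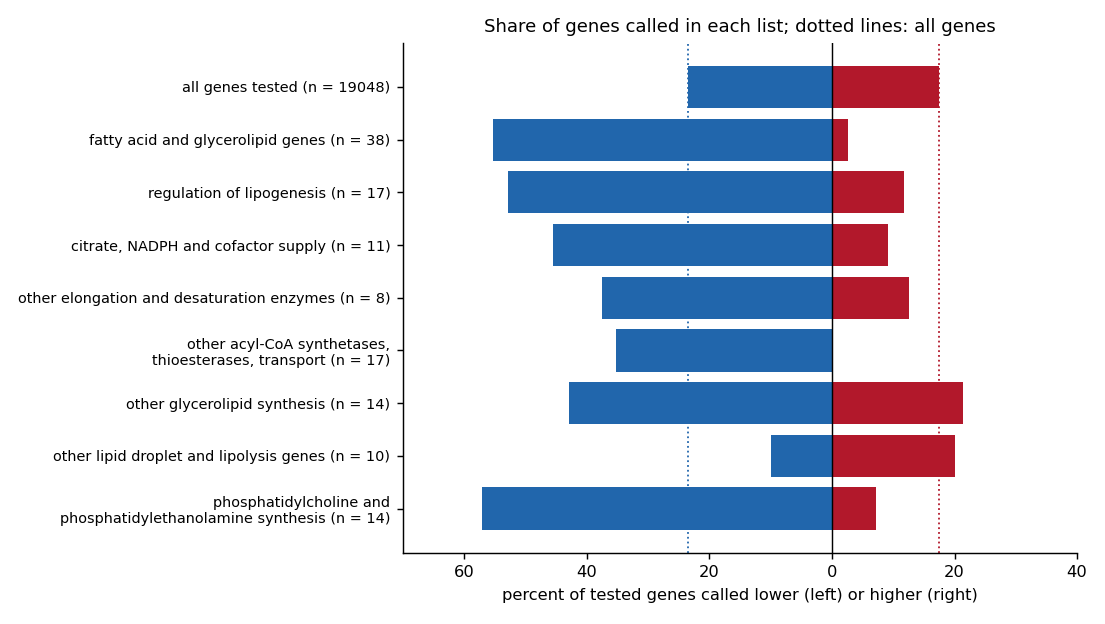
Share of tested genes called lower and called higher (percent, horizontal axis) for the members and for 7 lists of other pathway genes, with dotted lines at the shares over all tested genes, 23.5% lower and 17.5% higher. The members stand at 55.3% lower and 2.63% higher, and of the other droplet and lipolysis genes 1 of 10 was lower and 2 were higher.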

How the data were processed

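PolyA RNA of 6 libraries was read as single 50 bp reads, per the labels' protocols. Bowtie2, featureCounts and hg19 are named in the submitters' processing notes, and the strand setting and annotation release are not given in the sources used here. The authors deposited 1 table of log2 values. In this table, 100% of values became whole reads (tolerance 0.001) once a library size and 0.5 added reads were removed, so the deposited values are log2 CPM on effective library sizes, which were the totals times 0.9885 to 1.0087. The fixed design allowed for linear values. As the table was already on a log2 scale, those deposited log2 values went into limma 3.58.1 (R 4.3.3) unchanged, with lmFit and eBayes with a trend, the group as sole term and two-sided tests. Genes needed a mean of at least 10 reads (19048 genes). P-values were adjusted by Benjamini-Hochberg over all of them and called at 0.05. Fold changes understate those of genes with few reads. The fit was tested on simulated data.

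The members and lists were chosen with earlier results of these data known. The text names the 39 members, the target and, from each other list, at most the 4 genes with the largest log2 fold change of at least 0.5 among those called. CD36 and genes that overlap or copy a member were named after their values were seen. Of 185 genes in all lists, markers included, 11 were matched by a newer symbol and 1, PECAM1, was not analysed here. GENCODE 29 gave GC content and exon length, matched by gene ID or name, and RefSeq gave promoters (GRCh38.p14). For 7 members, all called lower (LPIN3, MGLL, PNPLA3, FASN, DGAT1, DGAT2 and FABP5), no promoter window was used here. No coordinates were converted between builds. Chi-square values per degree of freedom between replicates were 2.83 to 11.1, so each library was counted once. Alternatives covered scaling, filters, offsets, voom, the variance trend, thinning to the smallest total, GC and length, the replicate block and leaving out each library.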

Additional observations from a re-analysis of the deposited data

How the results depend on the processing

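Across 20 other fits and a stricter adjusted p of 0.01, the number of members called ran from 19 to 25 (19 to 24 with 1 library left out), beside 22, and the number called past a log2 fold change of 0.5 from 8 to 13 (8 to 13 with 1 library left out), beside 10. Other pathway genes called ran from 36 to 53 (39 to 46), and the log2 fold change of sin-lncRNA from -2.97 to -2.50 (-2.97 to -2.77). Over all genes, 5195 of 19048 were called at the stricter adjusted p, 5803 to 7330 with 1 library left out, and 7879 with voom, beside 7805. With the GC and length correction 8287 of 18735 were called, the highest count. 19 of the 22 called members kept call and direction in each of the other fits. The exceptions were PNPLA2, DGAT1 and AGPAT2, which lost the call in 20 of their values. AGPAT2 lost it without the variance trend (adjusted p = 0.0679) and without control replicate 3 (0.0528). Without control replicate 2, SREBF1 and PLIN3 were called, and PNPLA2 stood at -0.50. Members with small differences changed sign. With median-ratio scaling FADS1 was 0.00461 and AGPAT1 0.00676, with quantile normalization AGPAT1 was 0.0153, and with an offset of 5 reads ACSL5 was 0.0496. With the GC and length correction, with or without the replicate block, ELOVL2 was -0.00286, ACSL3 -0.0553, ACSL4 -0.110 and AGPAT1 0.0137. With 1 library left out, SCD5 ran from -0.119 to 0.00696, FADS1 from -0.0682 to 0.0362, FADS3 from -0.0854 to 0.00675, ELOVL2 from -0.0334 to 0.221, ACSL5 from -0.358 to 0.400 and AGPAT1 from -0.0622 to 0.0068. The cause was not tested. Among the other named genes, 11 of 13 kept their call, and G0S2 and SLC27A5 did not. Libraries with equal replicate numbers showed no clear shared deviation (correlations of deviations -0.149, -0.183 and 0.065). These values, taken without the GC correction, cannot show whether the libraries were prepared in pairs. With the replicate block 20 members, 40 other pathway genes and 6454 of all genes were called. Genes with few reads, such as ACSL5, ELOVL2, DGAT2 and LPIN3, have the widest intervals at this depth.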
